A study of Mus musculus with 30 samples.

Results

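The step from 3 d to 7 d after amputation of the mouse digit tip was examined across all genes, in the 9 RNA-seq libraries collected at these times out of 30 in the series. Libraries were chosen by their labelled time point alone: 6 at 7 d and 3 at 3 d. All came from adult male C57Bl/6 mice, 9 to 10 weeks old, in which at most 33% of the distal phalanx (P3) of hindlimb digit 3 had been cut off, an injury that this bone regrows from. The wound was left without sutures. Whole P3 tissue was collected, so each library mixes bone, marrow, nail, epidermis and connective tissue, and fewer cells of a type cannot be told apart from less RNA per cell. No label or method names a transgene or a drug for these mice.

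Dates in the sample titles split the 9 libraries into an earlier campaign (July) and a later one (November). In the whole series, which the fit used, the earlier campaign also held August dates. The later one also held December and January dates. The titles do not say what the date marks. At 3 d, mice 2 and 3 belong to the earlier campaign and mouse 1 to the later one. At 7 d, mice 1 and 2 are earlier and mice 3, 4, 5 and 6 are later. The numbers only name the mice. The digits of mice 3, 4 and 6 at 7 d came from the left foot by their labels and those of the remaining 6 mice from the right, so that foot, campaign and time overlap in part. The study's methods count 1 mouse for each library, so p-values measure the spread between mice. Total expected counts ran from 3177205 to 10097367 per library. Mouse 3 at 7 d stood apart, with 12191 genes detected against 13613 to 14921 in the other 8 libraries, and also on the axis that held 40.8% of the variance among the 9, and results are given with and without it where its removal moved them.

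Osteoclasts are the bone-resorbing cells of the body. They form when precursors of the monocyte lineage receive Csf1 and RANK ligand (Tnfsf11), switch on the transcription factor Nfatc1 and fuse. The mature cell attaches to bone through the integrin αvβ3, pumps protons through a vacuolar ATPase to dissolve mineral, and releases cathepsin K and other proteases to digest collagen. In the regenerating digit tip, osteoclasts erode the stump before new bone is laid down by osteoblasts.

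Only Itgb3 and Ctsk passed the test across all genes, and both are osteoclast genes that rose. The quasi-likelihood test of edgeR, with a term for campaign, covered 13793 genes, and these 2 had a Benjamini-Hochberg adjusted p under 0.05, or 0.0145% of the genes tested, and no gene was called lower. At an unadjusted p under 0.05 there were 560 genes higher at 7 d (4.06%) and 582 lower (4.22%), and the median log2 fold change of all genes was -0.00. CPM are counts scaled to a common library size after TMM normalization, and log2 fold changes are of 7 d over 3 d.

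Itgb3 encodes the integrin β3 chain, which pairs with αv to anchor the osteoclast to bone. The gene lies on chromosome 11 (GRCm38, 104608000 to 104670476, plus strand), and none of its exons overlaps an exon of another gene in GENCODE. Itgb3 stood at 78.9, 39.7 and 33.3 CPM in mice 1, 2 and 3 at 3 d and at 330.0, 209, 222, 202, 222 and 128 CPM in mice 1 to 6 at 7 d. Every 7 d mouse was above every 3 d mouse, including the later 3 d mouse, which was the highest of its group. The mean went from 50.6 ± 24.7 CPM (SD, n = 3) to 219 ± 64.9 CPM (SD, n = 6), a log2 fold change of 2.07 ± 0.311 (SE; adjusted p = 0.0035).

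Ctsk encodes cathepsin K, the protease with which osteoclasts degrade type I collagen. It lies on chromosome 3 (GRCm38, 95499256 to 95509362, plus strand), without exon overlap with another gene. Ctsk measured 373, 217 and 231 CPM in the 3 d mice and 1316, 1151, 859, 686, 1095 and 567 CPM in the 7 d mice. The groups did not overlap, and the lowest 7 d mouse was mouse 6. The mean went from 274 ± 86.1 CPM (SD, n = 3) to 946 ± 290.0 CPM (SD, n = 6), a log2 fold change of 1.78 ± 0.305 (SE; adjusted p = 0.0182). Both calls need both earlier 3 d mice. Without 3 d mouse 2 the adjusted p was 0.093 for Itgb3 and 0.171 for Ctsk, and without 3 d mouse 3 it was 0.172 and 0.367. Without the library that stood apart (7 d mouse 3), both were called, with log2 fold changes of 2.09 and 1.81. In a fit of the 9 libraries alone, where fewer mice inform the spread, the adjusted p of both was 0.0885.

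The stretch of DNA before the start of Ctsk is shown because this gene is one of the 2 called and the only one of them with a promoter window in the RefSeq table used here. It covers the 250 bases before RefSeq's annotated start (GRCm38.p6, chr3:95498960-95499209, plus strand), written 5′ to 3′.
Ctsk: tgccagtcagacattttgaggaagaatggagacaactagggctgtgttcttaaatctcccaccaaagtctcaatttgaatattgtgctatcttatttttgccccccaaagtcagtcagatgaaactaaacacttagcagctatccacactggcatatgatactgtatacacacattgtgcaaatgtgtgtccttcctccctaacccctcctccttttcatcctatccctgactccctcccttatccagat
Motifs would be in capitals. None of the 3 searched on both strands was present: the E-box cores CACGTG and CATGTG, which the MITF and TFE factors bind, and the AP-1 core TGANTCA. Among all 32851 promoter windows of 300 bases, 7.15% held CACGTG, 14.2% held CATGTG and 7.81% held TGANTCA. Of the 55 windows of the 39 osteoclast list members that have one, the shares were 9.09%, 10.9% and 5.45%.

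**Figure D1:**
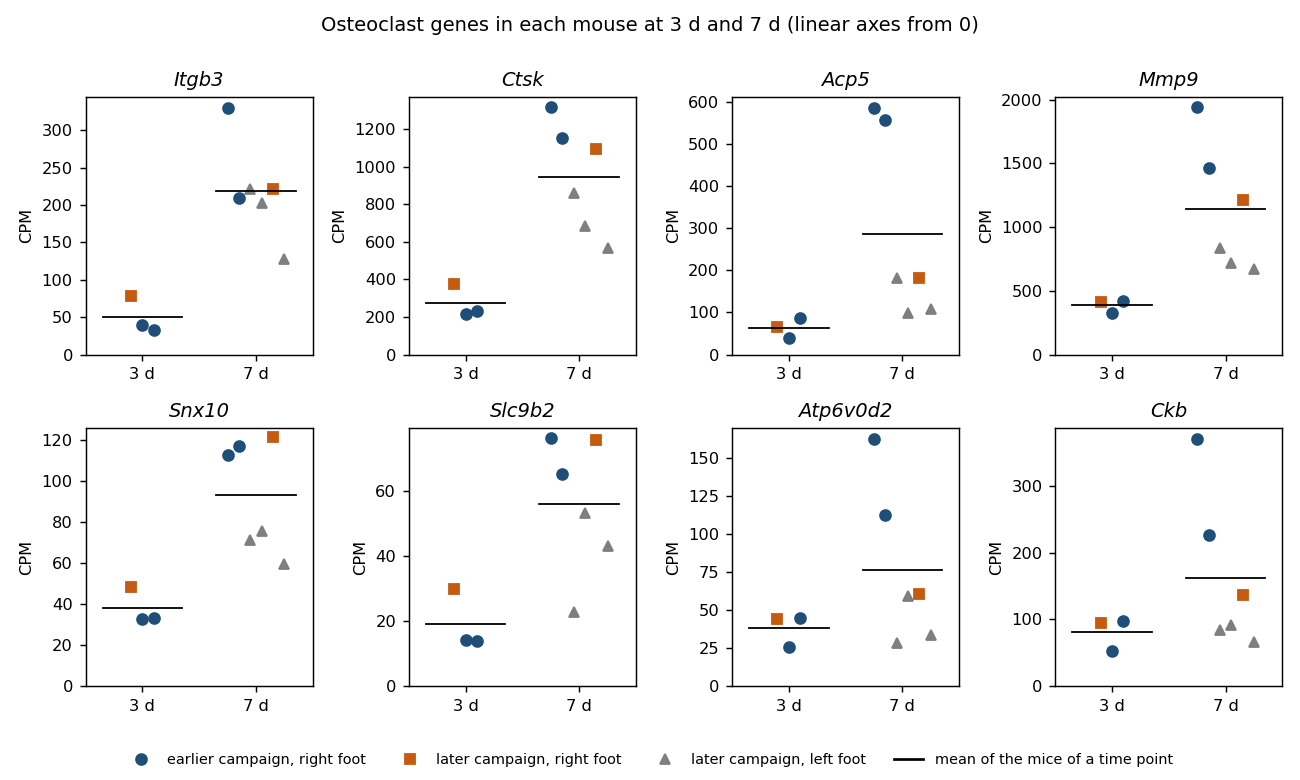
CPM (TMM-normalized, linear axes from 0) of 8 osteoclast genes in each of the 3 mice at 3 d and 6 mice at 7 d, with symbols for campaign and foot and a line at the mean. Itgb3, Ctsk, Acp5, Mmp9 and Snx10 show no overlap between times. Atp6v0d2 and Ckb are high in the 2 earlier 7 d mice (112 to 163 and 226 to 371 CPM). In the later 7 d mice they range from 28.4 to 60.5 and from 66.2 to 137 CPM. Some of these lie within and some above the 3 d range (25.6 to 44.9 and 52.3 to 97.1 CPM).

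Osteoclast genes were followed through 5 lists by role, 57 of whose 59 members in the table had enough counts to be tested. Of the 57, 45 had a positive log2 fold change in the joint fit. In both campaigns taken separately, 31 were positive, against 3367 of the 13793 genes tested. At an unadjusted p under 0.05, 17 were higher (29.8%, against 4.06% of all genes) and none was lower. In 6 of the 57 every 7 d mouse was above every 3 d mouse, against 0.776% of all genes. These 6 were Itgb3, Ctsk, Acp5, Mmp9, Snx10 and Jdp2. The median log2 fold change of the 57 was 0.25.

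The proteases and other enzymes had the highest median of the 5 lists. All 9 had a positive log2 fold change, with a median of 0.73. The unadjusted p was under 0.05 for 7 of them, against 4.06% of all genes in that direction, but Ctsk alone was called. Acp5, the tartrate-resistant acid phosphatase used to stain osteoclasts, had the largest log2 fold change of the enzymes. It stood at 65.4, 40.6 and 86.0 CPM at 3 d and at 585, 556, 181, 98.2, 182 and 108 CPM at 7 d. The groups did not overlap, the 2 earlier mice at 7 d were far above the later 4, and the log2 fold change of 2.14 ± 0.413 (SE) missed the threshold (adjusted p = 0.0682). Leaving out the 3 left-foot mice brought Acp5 past it, with a log2 fold change of 2.66 (adjusted p = 0.00142), and so did leaving out mouse 4 (0.0219) or mouse 6 (0.0255) at 7 d alone. Reads from the antisense gene 6530413G14Rik, whose exons overlap those of Acp5, could be counted with it.

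Mmp9, a gelatinase of osteoclasts and neutrophils, measured 414, 330.0 and 422 CPM at 3 d and 1943, 1461, 837, 716, 1217 and 675 CPM at 7 d. These groups did not overlap either, and the log2 fold change of 1.60 had an adjusted p of 0.305. Ckb, the brain-type creatine kinase, which osteoclasts use to supply ATP, had 94.1, 52.3 and 97.1 CPM at 3 d against 371, 226, 84.7, 91.7, 137 and 66.2 CPM at 7 d. The left-foot mice lay within the range at 3 d. Its log2 fold change was 0.99 (adjusted p = 0.53). Mmp14, the membrane-anchored collagenase, was between 134 and 205 CPM at 3 d and between 184 and 235 CPM at 7 d, with a log2 fold change of 0.48 (adjusted p = 0.546). Ctsz (0.73) and Rab38 (0.52) were also in the positive direction at unadjusted p = 0.0116 and 0.0147.

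All 12 genes of acid and ion transport had a positive log2 fold change in the joint fit, with a median of 0.22, and none was called. Only 5 of the 12 were positive in both campaigns, and the median in the later campaign was -0.02. Snx10, a sorting nexin that brings the proton pump to the osteoclast's ruffled border, measured 48.3, 32.6 and 33.3 CPM at 3 d and 113, 117, 71.3, 75.7, 121 and 59.6 CPM at 7 d. Every 7 d mouse was above the 3 d mice. The log2 fold change was 1.28 ± 0.269 (SE; adjusted p = 0.145), and it passed without the left-foot mice (1.64, adjusted p = 0.00208) and without 7 d mouse 6 (adjusted p = 0.0466). Slc9b2, a sodium-proton exchanger induced during osteoclast formation, stood at 29.9, 14.1 and 13.8 CPM at 3 d and at 76.4, 65.3, 22.9, 53.3, 76.0 and 43.2 CPM at 7 d. Only 7 d mouse 3, the library that stood apart, lay inside the range at 3 d. Slc9b2 had a log2 fold change of 1.48 (adjusted p = 0.456).

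The proton pump itself was less uniform. Tcirg1, the osteoclast-enriched a3 subunit, measured 29.4, 31.4 and 34.7 CPM at 3 d and 96.6, 60.7, 44.3, 21.4, 39.7 and 21.2 CPM at 7 d, so that the 2 lowest mice of the comparison were at 7 d. Its log2 fold change was 0.65 (adjusted p = 0.566). Clcn7, the chloride exchanger that balances proton flow, ranged from 25.0 to 47.1 CPM at 3 d and from 13.7 to 81.3 CPM at 7 d, with a log2 fold change of 0.11. The shared subunits Atp6v1a (0.10), Atp6v1b2 (0.41), Atp6v1c1 (0.20) and Atp6ap1 (0.07), which all cells use, had positive values that did not pass, as did the carbonic anhydrase Car2 (0.03).

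Among the fusion genes, those most particular to the process were at low levels. Dcstamp, needed for precursors to fuse, had 7.67, 9.11 and 3.16 CPM at 3 d and 28.5, 14.5, 11.4, 6.82, 8.99 and 5.06 CPM at 7 d, and the groups overlapped. The log2 fold change of Dcstamp was 0.93 ± 0.762 (SE; adjusted p = 0.783). Ocstamp, which acts beside it, had a log2 fold change of 1.09 (unadjusted p = 0.0325) and Atp6v0d2, a pump subunit that also takes part in fusion, 0.99 (unadjusted p = 0.0647). The tetraspanins Cd9 (0.15) and Cd81 (-0.02), which many cells carry, lay near 0. Siglec15 had at most 2.33 CPM in any of the 9 mice and was not tested.

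Of the receptors, Itgb3 was the one called. Its partner Itgav ranged from 170.4 to 244 CPM at 3 d and from 117 to 387 CPM at 7 d, a log2 fold change of 0.17 (adjusted p = 0.862). Csf1r, the receptor for Csf1, had 31.1, 52.0 and 66.8 CPM at 3 d, 198 and 172 CPM in the earlier 7 d mice and 37.6 to 61.8 CPM in the later ones. Only the earlier 7 d mice were above the 3 d mice. Its log2 fold change was 1.04 (unadjusted p = 0.00595, adjusted p = 0.496). Tnfrsf11a, which encodes RANK, the receptor of RANK ligand, had a log2 fold change of 0.34 (adjusted p = 0.701). Oscar, a costimulatory receptor, was at 0.588 to 3.34 CPM at 3 d and 2.21 to 11.8 CPM at 7 d (1.92, adjusted p = 0.605). Calcr, the calcitonin receptor of mature osteoclasts, had at most 0.971 CPM in any of the 9 mice and was not tested.

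Transcription factors and signalling proteins of the lineage had the lowest median of the 5 lists, with 11 of 20 members in the positive direction, a value of 0.10 and none called. Jdp2, an AP-1 family partner, measured 39.0, 35.0 and 34.0 CPM at 3 d and 69.9, 59.9, 65.2, 54.3, 64.3 and 39.1 CPM at 7 d. Its groups were separate by a narrow margin at mouse 6, with a log2 fold change of 0.68 (unadjusted p = 0.0295). Nfatc1, the master regulator, had a log2 fold change of 0.46 (unadjusted p = 0.0466) and Src, the kinase needed for the ruffled border, 0.51 (unadjusted p = 0.0126). Fos (-0.34), Mitf (-0.16), Traf6 (-0.27) and the repressor Bcl6 (-0.10) lay in the other direction, all without passing.

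**Figure D2:**
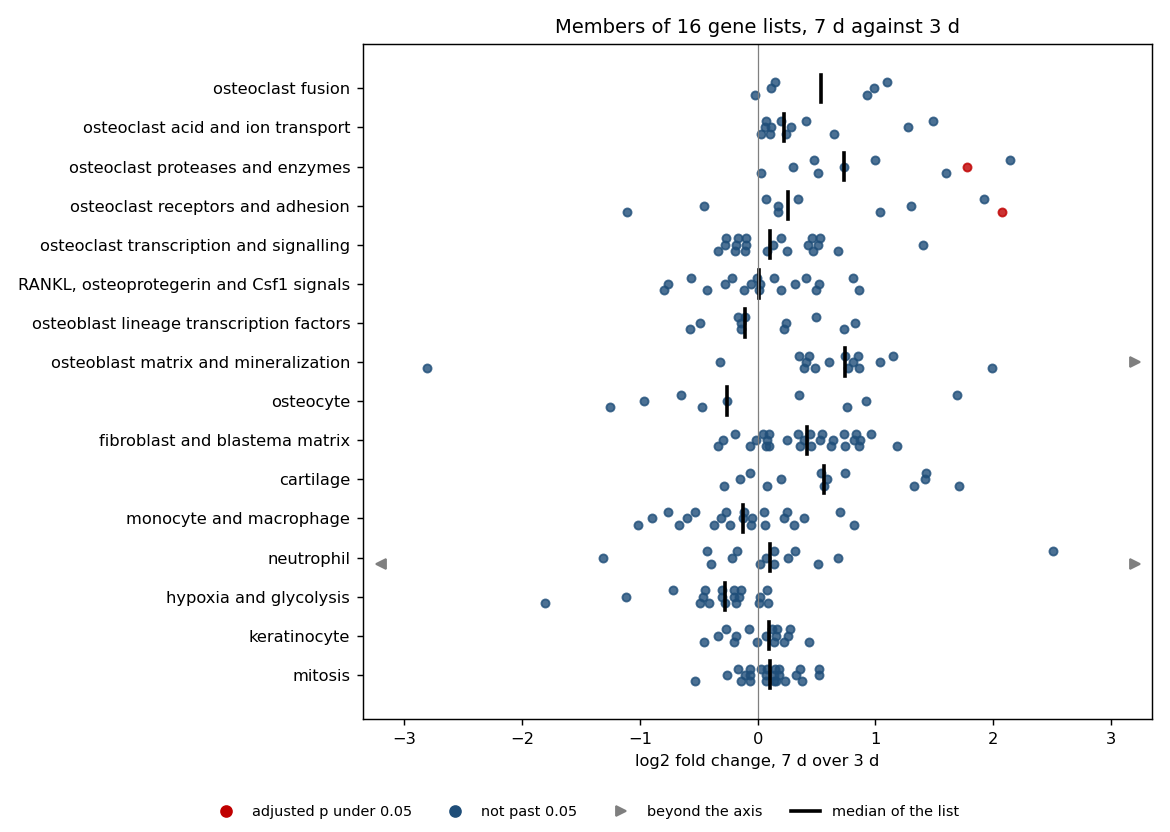
Log2 fold change of 7 d over 3 d for each tested member of 16 gene lists, with a bar at each list's median; red points passed an adjusted p of 0.05 and grey triangles mark 3 values beyond the axis. Only Itgb3 and Ctsk are red, the enzyme list has the highest osteoclast median (0.73), and the osteoblast matrix list is shifted to a similar extent (0.74) without a call.

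The step was larger in the earlier campaign for 38 of the 57 osteoclast genes. In the earlier campaign, 2 mice against 2, the log2 fold change of Itgb3 was 2.89 and that of Ctsk 2.46, and both passed in that campaign alone (adjusted p = 0.000459 for each). In the later campaign, 4 mice against 1, they were 1.29 (adjusted p = 0.339) and 1.10 (adjusted p = 0.382). The direction held in both. Acp5 had 3.17 in the earlier campaign, with a later step lower by 2.04 on the log2 scale (interaction value -2.04, adjusted p = 0.386). Mmp9 had 2.18 against 1.06 and Snx10 1.80 against 0.77. Ckb had 1.99 against 0.01, Atp6v0d2 1.96 against 0.05 and Clcn7 0.94 against -0.69. Over the 57 genes the median was 0.48 in the earlier campaign and 0.12 in the later one.

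Tested as an interaction, the difference between campaigns passed for no gene of the 13793 (992 at an unadjusted p under 0.05, or 7.19%). Of the 57 osteoclast genes, 17 were among these 992 (29.8%), and in 15 of the 17 the step was lower in the later campaign, a direction that 3.24% of all genes had at that level. For Itgb3 the interaction had an unadjusted p of 0.00384 (adjusted p = 0.489) and for Ctsk 0.00575 (adjusted p = 0.511). The later campaign also holds the only later 3 d mouse, all the left-foot mice and the library that stood apart, and its step rests on that 1 mouse at 3 d. Without 7 d mouse 3 no gene passed the interaction either (1073 at an unadjusted p under 0.05), and without the left-foot mice 8 did, none of them an osteoclast gene. With the 3 left-foot mice left out, each time had 2 earlier mice and 1 later one. The number of genes called then went from 2 to 16, of which 14 were higher and 6 were osteoclast genes (Itgb3, Ctsk, Acp5, Snx10, Ckb and Slc9b2).

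**Figure D3:**
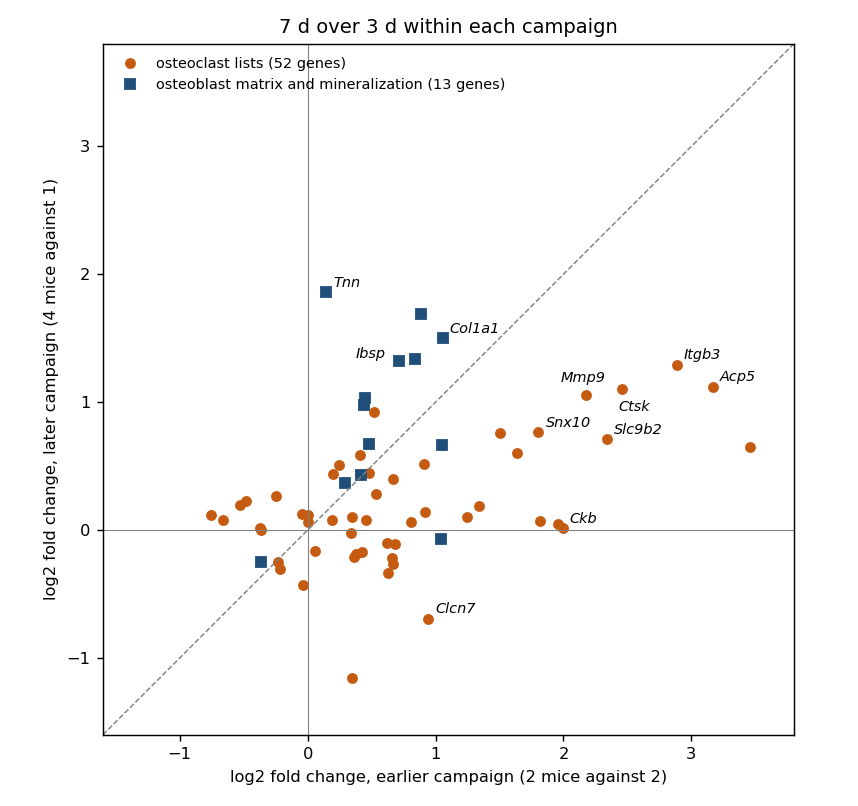
Log2 fold change of 7 d over 3 d in the earlier campaign (horizontal axis, 2 mice against 2) and the later campaign (vertical axis, 4 mice against 1) for members with a mean of at least 5 CPM at either time; the dashed line marks equal values. Of 52 osteoclast genes, 38 lie below the line, and of 13 osteoblast matrix genes, 2 do.

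The foot was compared among the later 7 d mice, 3 left against 1 right. With a single right-foot mouse, assumed to vary like the other groups, foot cannot be told apart from that mouse. By adjusted p, 1 gene differed (0.00725% of those tested), and it was no osteoclast gene. It was Mmp3, stromelysin 1 of wound fibroblasts, named here after its values were seen. Mmp3 had 66.5, 67.6 and 67.2 CPM in the left-foot mice and 536 CPM in the right-foot mouse, and 454 and 629.6 CPM in the earlier 7 d mice, a log2 difference of -3.00 between left and right (adjusted p = 0.00345). In 6 of the 57 osteoclast genes this test had an unadjusted p under 0.05, all 6 lower in the left-foot mice (10.5%, against 2.08% of all genes in that direction). Ptgs2, the inducible prostaglandin synthase, had a similar pattern, with 12.7, 12.2 and 26.6 CPM in the left-foot mice against 109 to 208 CPM in the other 7 d mice, but did not pass (log2 difference of -2.66, adjusted p = 0.837).

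The name of the step, the onset of bone resorption, was checked against the other time points. Ctsk averaged 37.3 ± 6.43 CPM at 0 h and 26.6 ± 6.32 at 24 h (SD, n = 3 each), so its 274 CPM at 3 d was already above the level at 24 h by a log2 fold change of 3.34, more than the 1.78 that followed. Mmp9 stood at 29.3 ± 11.9 CPM at 24 h, 389 ± 51.0 at 3 d and 1142 ± 498 at 7 d, with log2 fold changes of 3.75 and 1.60. Slc9b2 (5.42 and 1.48) and Atp6v0d2 (4.46 and 0.99) had the same order, and both were under 2 CPM at 24 h. Itgb3 had the reverse order, with 16.4 ± 1.87 CPM at 24 h and log2 fold changes of 1.61 and then 2.07. Acp5 had 2.18 and 2.14. The transcripts were thus above their level at 24 h by 3 d, and highest at 7 d. These steps share the 3 d mice and were not compared by a test.

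At 14 d, Itgb3 was at 44.6 ± 17.2 CPM, close to its level at 3 d, for a log2 fold change of -2.33 against 7 d. Ctsk was at 319 ± 97.0 CPM (-1.58), Acp5 at 101 ± 25.9 CPM (-1.15) and Mmp9 at 514 ± 215 CPM (-1.06). Of the 57 osteoclast genes, 29 had their highest mean of the 9 times at 7 d, against 13.7% of all genes tested. In TPM, which allows levels to be compared between genes, the means at 7 d were 1425 for Ctsk, 807 for Mmp9, 498 for Acp5 and 82.7 for Itgb3.

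**Figure D4:**
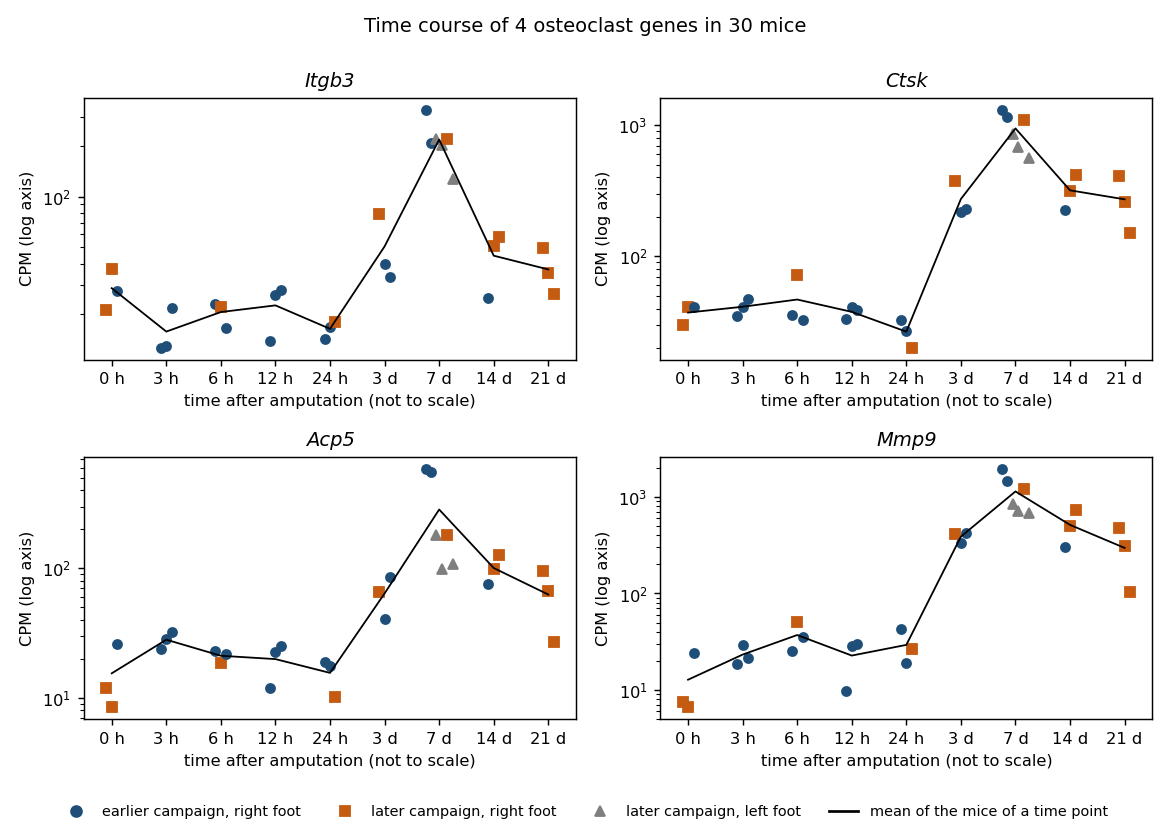
CPM (log axes) of Itgb3, Ctsk, Acp5 and Mmp9 at the 9 times in all 30 mice, with the line through the means and the times drawn at equal distances. Each gene has its highest mean at 7 d, and Ctsk and Mmp9 are already far above their 24 h level at 3 d (274 against 26.6 and 389 against 29.3 CPM).

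None of the genes listed as signals of osteoclast formation passed the test. Of 19 tested genes, 10 had a positive log2 fold change and the median was 0.01. The list mixes ligands, receptors and a decoy receptor, so these values do not measure the drive to form osteoclasts. Tnfsf11, RANK ligand, measured 8.55, 14.1 and 26.0 CPM at 3 d and 26.9, 15.5, 7.39, 14.0, 22.7 and 9.01 CPM at 7 d. These ranges overlapped almost fully (log2 fold change 0.20 ± 0.499, SE; adjusted p = 0.954). Its decoy receptor osteoprotegerin, Tnfrsf11b, was at 3.40 to 8.36 CPM at 3 d and 4.25 to 19.7 CPM at 7 d, with a log2 fold change of 0.41 (adjusted p = 0.884). Csf1 measured 42.0, 45.0 and 49.3 CPM at 3 d and 47.4, 47.9, 20.9, 30.6, 28.4 and 18.8 CPM at 7 d. The later 7 d mice were all below the 3 d mice and the earlier ones within their range, and its log2 fold change was -0.43 (adjusted p = 0.65). Pth1r, the receptor of parathyroid hormone, had a log2 fold change of 0.81 (unadjusted p = 0.00957) and Cxcl12, a chemokine of marrow stroma, of -0.57 (unadjusted p = 0.0208). Il1b (0.86), Il6 (-0.76) and Il11 (-0.01) varied widely between mice. Tnf was at most 0.844 CPM and was not tested.

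Genes listed for bone matrix and mineralization had mostly positive fold changes, none of which was called. Of 17 tested osteoblast matrix and mineralization genes, 15 had a positive log2 fold change. The unadjusted p was under 0.05 for 6 of these, against 4.06% of all genes in that direction. The median was 0.74, also with Bglap2 at its lower bound. In both campaigns taken separately, 13 of the 17 were positive. Members differed in size, with Alpl at 0.29 in the earlier and 0.37 in the later campaign, and Smpd3 at -0.37 and -0.25. Cthrc1 is also on the fibroblast and blastema matrix list, and which cells of this mixed tissue made these transcripts was not tested. Col1a1, the main chain of type I collagen, measured 1666, 4193 and 1727 CPM at 3 d and 6129.9, 6165, 4349.7, 6327, 3567 and 4605 CPM at 7 d. The high 3 d mouse 2 lay above the lowest 7 d mouse. Its log2 fold change was 1.15 ± 0.323 (SE; adjusted p = 0.338), and the step did not pass a difference between campaigns (interaction 0.45, adjusted p = 0.918). Ibsp, bone sialoprotein, had 458, 689 and 179 CPM at 3 d and 846, 579, 1515, 943, 1147 and 959.9 CPM at 7 d. The groups overlapped at 3 d mouse 2, and the log2 fold change was 0.85 (adjusted p = 0.557).

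Spp1, osteopontin, which osteoclasts and macrophages also make, was also highest in the earlier 7 d mice, with 504 to 527 CPM at 3 d, 1095 and 1037 CPM in the earlier 7 d mice and 324 to 618 CPM in the later ones. Its log2 fold change was 0.49 (adjusted p = 0.629). Bglap2, one of 3 near-identical osteocalcin genes whose reads may be split between copies, had no count in any 3 d mouse and was at least 10.2-fold higher at 7 d in the mean, against a floor of 3 counts over the 3 d group. Bglap2 reached only 4.43 CPM, had no count in 7 d mouse 3 and was not called (adjusted p = 0.301). The copy Bglap3 had 2.46, 1.76 and 3.64 CPM at 3 d and 1.80 to 6.19 CPM at 7 d, which overlap. Bglap was at most 1.21 CPM at 3 d and 3.17 CPM at 7 d, with no count in several mice of each time. The fold of Bglap2 therefore does not describe osteocalcin transcripts as a whole. The mature-osteoblast marker Ifitm5 was near absent at both times, with 2 counts in 3 d mouse 2 and no count in the other mice.

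Osteoblast transcription factors were spread around 0. Of 11 tested, 5 had a positive log2 fold change, with a median of -0.11. Runx2, which commits cells to the lineage, was at 17.6, 12.9 and 20.2 CPM at 3 d and 33.9, 39.1, 15.7, 21.3, 14.6 and 11.4 CPM at 7 d, high in the earlier mice alone (log2 fold change 0.50, adjusted p = 0.671). Sp7, osterix, which acts after it, was between 5.41 and 13.2 CPM at 3 d and between 8.73 and 11.6 CPM at 7 d (0.22, adjusted p = 0.917), and averaged 42.8 ± 10.3 CPM at 14 d. Dlx5 had a log2 fold change of -0.57 (unadjusted p = 0.00784). Of 9 osteocyte genes, 4 were in the positive direction. Dmp1, a matrix phosphoprotein of osteocytes, measured 20.3, 36.7 and 17.0 CPM at 3 d and 72.0, 53.8, 50.2, 52.2, 19.4 and 21.5 CPM at 7 d (0.92, adjusted p = 0.554). Slc13a5, a citrate transporter, averaged 0.718 ± 0.319 CPM at 3 d and 2.74 ± 1.66 CPM at 7 d, without overlap (1.69, adjusted p = 0.546), and Ptprz1 had a log2 fold change of -0.65 (unadjusted p = 0.043).

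**Figure D5:**
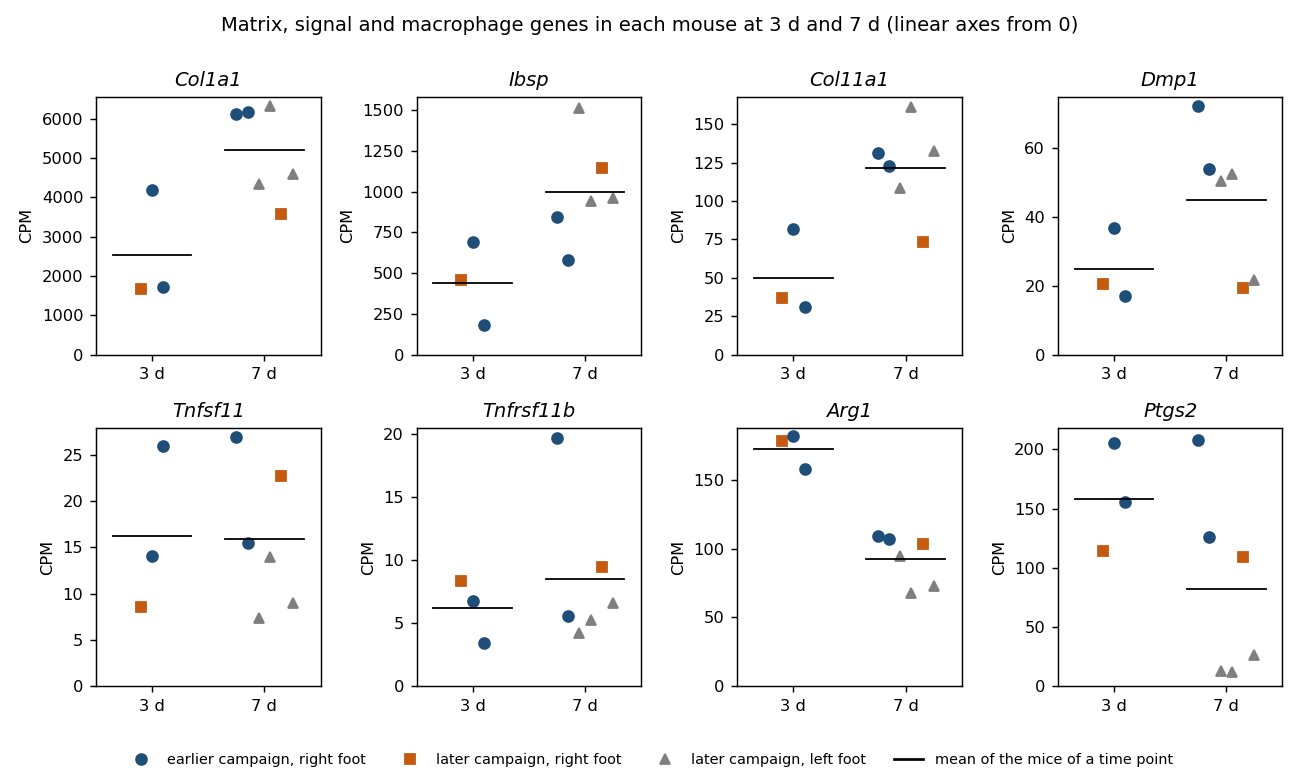
CPM (linear axes from 0) of 8 matrix, signal and macrophage genes in each mouse at 3 d and 7 d, with symbols for campaign and foot and a line at the mean. Col1a1, Ibsp and Col11a1 have higher means at 7 d with overlap, Tnfsf11 overlaps almost fully, Tnfrsf11b overlaps except for 7 d mice 1 and 5, Arg1 is lower in every 7 d mouse, and Ptgs2 is low in the 3 left-foot mice.

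Other connective tissue genes had a like pattern. Of 28 fibroblast and blastema matrix genes, 23 had a positive log2 fold change, and the median was 0.42. The unadjusted p was under 0.05 for 8 of these, against 4.06% of all genes in that direction, and none was called. Col5a1 measured 227, 503 and 242 CPM at 3 d and between 468 and 812 CPM at 7 d (0.96, adjusted p = 0.458), and Col5a2 519.6, 988 and 506 CPM at 3 d and between 982 and 1281 CPM at 7 d (0.86, adjusted p = 0.466). In both, 3 d mouse 2 alone reached the range at 7 d. Among the cartilage genes 10 of 13 were in the positive direction. Their median was 0.80 in the earlier campaign and 0.03 in the later one. Sox9 measured 130, 84.0 and 60.7 CPM at 3 d and between 39.1 and 121 CPM at 7 d, which overlap. Col11a1, a fibrillar collagen of cartilage and early bone, measured 37.2, 81.7 and 31.3 CPM at 3 d and 131, 123, 109, 162, 73.2 and 132 CPM at 7 d, overlapping only between 3 d mouse 2 and 7 d mouse 5. It had a log2 fold change of 1.32 ± 0.319 (SE; adjusted p = 0.201).

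Macrophages share precursors and many genes with osteoclasts. Of 22 tested members, 8 had a positive log2 fold change and the median was -0.12. The summed level of its 25 genes was 418.5 to 680.3 CPM at 3 d and 308.5 to 665 CPM at 7 d. Lyz2, lysozyme of myeloid cells, had a log2 fold change of -0.04. Arg1, an arginase of wound macrophages that epidermis also makes, measured 178, 182 and 158 CPM at 3 d and 109, 107, 94.7, 67.4, 103 and 73.0 CPM at 7 d, with every 7 d mouse below every 3 d mouse, against 1.41% of all genes. Its log2 fold change of -0.89 ± 0.226 (SE) did not pass (adjusted p = 0.269). Gpnmb, a glycoprotein of macrophages and osteoclasts, had 29.2, 26.2 and 24.8 CPM at 3 d, 89.1 and 67.0 CPM in the earlier 7 d mice and 21.6 to 27.9 CPM in the later ones. The interaction with campaign had an unadjusted p of 3.53e-05 for Gpnmb (adjusted p = 0.244).

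Neutrophils also make Mmp9. Their list had 10 of 16 members in the positive direction and a summed level of 146.7 to 215.2 CPM at 3 d and 137.7 to 248.3 CPM at 7 d, which overlap. The calprotectin subunit S100a9 had a log2 fold change of 0.51 (adjusted p = 0.857). Of the genes listed for immature neutrophils, which mark marrow, several were found in few mice, but not all. Lcn2 had counts in every mouse, with 3.74, 4.70 and 14.3 CPM at 3 d and 4.44 to 27.7 CPM at 7 d. Chi3l3 had 0.491, 4.41 and 4.37 CPM at 3 d and 0 to 10.4 CPM at 7 d. Mpo, an early granule enzyme, had 12.5 CPM in 3 d mouse 1, 0.317 CPM in 7 d mouse 4 and no count in the others, and Elane and Ctsg were found in 3 d mouse 1 alone. Camp, Ngp and Ltf, of later granules, had no count at 3 d and 22.3, 44.8 and 58.0 CPM in 7 d mouse 1, with at most 9.96 CPM in the others. Mouse 1 at 7 d also had the highest Itgb3 and Ctsk. Without it, both were called (log2 fold changes of 1.84 and 1.62). The part of marrow or neutrophils in the other osteoclast values was not tested.

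Among epithelial and growth genes no member was called. The keratinocyte list summed to between 63140 and 93270 CPM at 3 d and between 59650 and 120700 CPM at 7 d, and its 16 members had a median log2 fold change of 0.09. The 24 mitosis genes (median 0.11) and the 20 DNA replication genes (0.12) lay close to 0 in the median, and Mki67, a marker of cycling cells, had a log2 fold change of 0.36 (adjusted p = 0.702). Of 19 hypoxia and glycolysis genes 15 were in the negative direction (median -0.28). Of 9 Schwann cell genes 8 were (median -0.64), and so were all 5 sweat and pad gland genes (median -0.86), with none called. Aqp5, the water channel of sweat glands, had a log2 fold change of -0.86 (unadjusted p = 0.00946).

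No gene was called lower at 7 d, and the 5 of lowest p in that direction are given as not passing. They were Klk9, Ccng1, Lce1l, Lnx1 and Cnfn, with adjusted p between 0.184 and 0.201. Klk9 is an epidermal kallikrein, Lce1l and Cnfn are genes of the cornified envelope, the outer shell of the epidermis, and Ccng1 encodes a cyclin induced by p53. Lce1l measured 85.5, 81.1 and 83.5 CPM at 3 d and 48.9, 46.9, 13.1, 31.3, 33.4 and 30.2 CPM at 7 d, without overlap (log2 fold change -1.33). Klk9 overlapped at 7 d mouse 2 (-1.30). The exons of Lnx1 overlap those of Fip1l1 on the other strand, so reads of both may be mixed (-0.80). DESeq2's Wald test called all 5, among 29 genes in all.

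A few genes outside the lists came next to the osteoclast genes by p, and were picked after their values were seen. Pla2g7, a phospholipase that degrades platelet-activating factor, measured 12.5, 11.8 and 10.7 CPM at 3 d and 32.4, 31.0, 51.5, 23.2, 36.3 and 20.1 CPM at 7 d. Its groups were well apart and its log2 fold change was 1.44 ± 0.29 (SE; adjusted p = 0.0935), with 1.39 in the later campaign alone. Hoxd13, the homeobox gene of the distal limb, stood at 11.1, 5.88 and 8.98 CPM at 3 d and at 20.7, 19.6, 23.4, 17.0, 18.9 and 26.6 CPM at 7 d, also without overlap (1.25, adjusted p = 0.184). The step before, from 24 h to 3 d, had a Hoxd13 log2 fold change of -1.25. Gpr137b, a lysosomal membrane protein, had 28.9, 30.3 and 43.0 CPM at 3 d and 138, 108, 46.2, 32.5, 73.2 and 41.9 CPM at 7 d, highest in the earlier mice, and overlapping with 3 d in the left-foot mice 4 and 6 (log2 fold change in the earlier campaign 1.74, adjusted p in the joint fit = 0.184).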

How the data were processed

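RNA of 30 libraries was sequenced as single-end reads, 9 of them at 3 d and 7 d. The authors mapped reads to Ensembl mouse genes with Bowtie (build mm10 per the labels) and deposited expected counts from RSEM 1.2.3, not normalized, and TPM. CASAVA 1.8.2 is also named in the submitters' processing notes. The reads of paralogs are shared out by RSEM's estimate.

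Here, expected counts were rounded to whole numbers and tested with edgeR 4.0.16 in R 4.3.3 (TMM, filterByExpr by time point, quasi-likelihood test, Benjamini-Hochberg at 0.05), with all 30 mice and terms for time point and campaign. This kept 13793 of 20321 genes. Interaction and single-campaign tests used 1 mean per combination of time and campaign, with the spread estimated from all 30 mice. Foot differences came from 1 mean per combination of time, campaign and foot. The contrast was tested on simulated data. Libraries of a time point differed by more than sampling noise in all 18 pairs (chi-square over its degrees of freedom at least 9.83). Folds against a group at 0 use a floor of 3 counts over the group, which covers counting error only. Alternatives used DESeq2 1.42.0, limma 3.58.1 on TPM, other filters, samples and thresholds. Figures used matplotlib 3.10.9.

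The comparison, lists and tests were chosen with earlier results of these data known. Named genes were called genes (same sign in both campaigns, at least 5 CPM), the 5 of lowest p where a direction had none, all tested osteoclast, RANKL, osteoblast and osteocyte members, and the 3 most abundant members of the other lists. Any other gene named was chosen after its values were seen. Sequences are from RefSeq (GRCm38.p6), where 39 of 57 osteoclast genes matched by symbol, and coordinates from GENCODE (GRCm38). The deposited averages per time point were not used.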

Additional observations from a re-analysis of the deposited data

Results flagged for a closer look

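Among the 7 d mice, 196 values were screened for a single library far from the other 5 (by Dixon's gap over range), and 18 were past this limit (9.18%), where chance gives about 1 in 20. Of these, 9 fell on mouse 3, the library with the fewest genes detected (12191, against 13937 to 14830 in the other 7 d mice). Mouse 3 was lowest in Lce1l (13.1 CPM), Btk (0.185), Dlx6 (0), Msx2 (4.06), Irx5 (0), Mbp (10.7), Mcpt4 (0.739) and Ifit3 (0). Mouse 1 was highest in Ngp (44.8 CPM) and lowest in Krt8 (1.55) and Krt19 (0). Mouse 2 was lowest in Smpd3 (42.0 CPM) and Cthrc1 (17.4). Mouse 4 was highest in Lpl (53.2 CPM). Mouse 5 was highest in Cxcl1 (152 CPM, against 26.3 to 46.0 in the others) and lowest in Phex (3.21) and Ifit2 (3.08). Itgb3, Ctsk, Acp5, Mmp9 and Snx10 were not among the 18.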

How the results depend on the processing

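The count of 2 called genes (2 higher, 0 lower, 2 of osteoclast lists) was the same without the campaign term, with DESeq2 size factors and with a filter of at least 1 CPM in at least 3 mice. It was 0 (0 osteoclast) in fits of the 9 mice alone, with or without campaign (565 and 470 at an unadjusted p under 0.05), 16 (14 higher, 2 lower, 6 osteoclast) without the left-foot mice, 12 (10 higher, 2 lower, 5 osteoclast) in the earlier campaign alone and 5 (0 higher, 5 lower, 0 osteoclast) in the later one. It was 29 (21 higher, 8 lower, 4 osteoclast) with DESeq2's Wald test, which gave no adjusted p for 7488 genes, 1 (1 higher, 1 osteoclast, Itgb3) with limma on log2(TPM + 1) or log2(TPM + 0.1), 6 (4 higher, 2 lower, 4 osteoclast) with no filter, and 1 (1 higher, 1 osteoclast) at a threshold of 0.01. With 1 mouse left out it ran from 0 to 6 (0 to 5 higher, 0 to 3 lower, 0 to 4 osteoclast), with 0 without 3 d mouse 2 or 3, 6 without 7 d mouse 2 and 5 without 7 d mouse 4 or 6. The cause was not tested. Genes whose step differed between campaigns went from 0 to 8 without the left-foot mice, mostly mitochondrial transcripts, and from 0 to 7 with 1 mouse left out (7 without 7 d mouse 4). Over 21 alternatives at 0.05, Itgb3 passed in 16 (log2 fold change 1.29 to 2.89, adjusted p from 1.79e-08 to 0.601) and Ctsk in 14 (1.10 to 2.46, adjusted p from 1.41e-06 to 0.645). Of 4250 values of 194 named genes, none called in either fit changed sign, 312 uncalled ones did, 25 passed anew and 13 no longer passed. No paired analysis was made. The titles carry codes whose meaning the labels do not give, and the study's methods count 1 mouse for each library. A 0 h and a 12 h title share the same code and date, and whether they share an animal was not tested. With 1 later mouse at 3 d, the later campaign's step has no replicate at its base.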

Other observations

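Nail and hair keratin genes had medians of opposite sign in the campaigns, a difference that was not tested for the list. Of 18 tested, 4 had a positive log2 fold change of 7 d over 3 d, and none was called. The median was -0.11 in the joint fit, -1.08 in the earlier campaign and 1.30 in the later one. The later value rests on 3 d mouse 1, where these genes summed to 2328 CPM. They summed to 14308 and 10501 CPM in 3 d mice 2 and 3, and to between 4807 and 11234 CPM at 7 d. Of 6 erythroid genes 5 were in the positive direction (median 0.42), and of 11 interferon-stimulated genes 8 were (median 0.31). The 20 BMP signalling genes (median 0.03), the 23 Wnt signalling genes (median 0.09) and the 22 wound keratin and alarm genes (median 0.03) were divided in direction, with 11, 14 and 12 in the positive one, and none of them was called.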
